A study of Homo sapiens with 8 samples.

Results

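Replication-dependent histone genes encode the bulk of the histones that package new DNA. Rows whose listed gene name begins with HIST1 to HIST4 followed by H1, H2A, H2B, H3 or H4 were taken, which gave 89 names, and 14 names of pseudogenes were left out. The remaining 75 genes of 57756 listed genes comprised 6 of the H1 class, 17 of H2A, 23 of H2B, 14 of H3 and 15 of H4. By cluster, 55 were HIST1 genes on chromosome 6, 15 were HIST2 genes and 4 were HIST3 genes on chromosome 1, and 1 was the HIST4 gene on chromosome 12. RefSeq lists 5 of the 75 as pseudogenes although their names do not say so, namely HIST2H2BA, HIST2H2BB, HIST2H2BC, HIST2H2BD and HIST3H2BA. RNA was sequenced from 4 untreated human cancer cell lines, once after immunoprecipitation of the small-subunit ribosomal protein RPS6 (RIP) and once from an aliquot of the same lysate kept as input. The lines were Hep3B from a liver cancer, HCT116 from a colon cancer, DU145 from a prostate cancer and SW1990 from a pancreatic cancer. Each line gave 1 RIP and 1 input library, 8 libraries in all. The liver libraries carry 3B in their titles and Huh7 in their cell line label, and they are called Hep3B here after the study's text. No library of a non-specific antibody was among the 8.

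Histone H1 binds the linker DNA between nucleosomes, and H2A, H2B, H3 and H4 form the nucleosome core. The clustered genes are transcribed mainly in S phase, carry no introns in their main transcripts, and give mRNAs that end in a conserved stem-loop in place of a poly(A) tail. The stem-loop is bound by SLBP, which serves the processing, the export and the translation of these mRNAs, and the mRNAs are degraded when DNA synthesis stops. A library of total RNA, as made here, does not depend on a poly(A) tail.

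Depth ranged from 35796164 to 54209500 fragments in the inputs and from 34630345 to 42610112 in the RIP libraries. Liver markers separated the Hep3B libraries from the others, with albumin (ALB) at 5030.1 FPKM (fragments scaled to transcript length and library depth) in the Hep3B input and below 1 FPKM in the other inputs. The 4 intestinal markers lay at or below 6.25 FPKM in the HCT116 input, with VIL1 listed at 0, while CDX2 reached 86.6 FPKM in SW1990. The prostate markers HOXB13 and KLK3 were listed at 0 in the DU145 input. Of 4 markers of pancreatic duct, KRT7 lay at 3.17, MUC1 at 1.16 and MSLN at 10.6 FPKM in the SW1990 input and CEACAM6 was listed at 0, while KRT7 reached 254 FPKM in DU145. These markers therefore did not mark the HCT116, DU145 and SW1990 libraries by their labelled tissue. In such bulk libraries fewer cells in S phase and less histone mRNA per cell cannot be told apart.

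Promoters of 5 H1 genes are shown because each held an H1 box and a CCAAT box, while HIST1H1A, HIST1H1B and HIST1H1D were each near 0 in at least 1 line. The stretches end 20 bases before the annotated start and come from RefSeq (GRCh38.p14, strand of the gene). Capitals mark the H1 box (AAACACA), the CCAAT box (CCAAT) and the TATA box (TATAAA) on either strand, so that the reverse of the H1 box reads TGTGTTT and that of the CCAAT box reads ATTGG. The printed stretches lie at chr6:26017807-26017977, chr6:27867608-27867718, chr6:26056490-26056600 and chr6:26235007-26235117 on the minus strand and at chr6:26156199-26156309 on the plus strand, in the order of the lines that follow.
HIST1H1A: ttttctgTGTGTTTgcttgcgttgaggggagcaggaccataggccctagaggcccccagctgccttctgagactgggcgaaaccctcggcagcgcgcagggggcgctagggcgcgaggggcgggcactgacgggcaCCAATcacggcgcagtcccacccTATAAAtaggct
HIST1H1B: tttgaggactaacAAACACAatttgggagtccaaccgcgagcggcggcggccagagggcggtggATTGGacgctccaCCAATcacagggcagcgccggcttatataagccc
HIST1H1C: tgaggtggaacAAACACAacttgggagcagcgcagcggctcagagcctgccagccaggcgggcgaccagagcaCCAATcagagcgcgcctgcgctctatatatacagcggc
HIST1H1D: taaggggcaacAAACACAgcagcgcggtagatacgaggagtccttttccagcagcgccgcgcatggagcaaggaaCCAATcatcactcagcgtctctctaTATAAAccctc
HIST1H1E: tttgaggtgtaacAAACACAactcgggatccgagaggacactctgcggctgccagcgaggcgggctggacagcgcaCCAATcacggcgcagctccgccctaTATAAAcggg
An H1 box began 117 to 119 bases before the start in HIST1H1B, HIST1H1C, HIST1H1D and HIST1H1E. In HIST1H1A the only match was on the opposite strand, 183 bases before the start. A CCAAT box began 53 to 57 bases before the start in each of the 5 promoters, and HIST1H1B held another at 66 bases. TATAAA was matched in HIST1H1A, HIST1H1D and HIST1H1E and not in HIST1H1B and HIST1H1C.

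Pairs of H2A and H2B genes stand head to head and share 1 short promoter. The whole stretch between both starts is given for HIST1H2AE with HIST1H2BG (chr6:26216689-26216920, 232 bases), which were low in HCT116, and for HIST1H2AI with HIST1H2BL (chr6:27807930-27808172, 243 bases), which were low in Hep3B. Both are read on the plus strand toward the H2A gene, with the octamer (ATTTGCAT, reverse ATGCAAAT), the CCAAT box and the TATA box in capitals on either strand.
HIST1H2AE and HIST1H2BG: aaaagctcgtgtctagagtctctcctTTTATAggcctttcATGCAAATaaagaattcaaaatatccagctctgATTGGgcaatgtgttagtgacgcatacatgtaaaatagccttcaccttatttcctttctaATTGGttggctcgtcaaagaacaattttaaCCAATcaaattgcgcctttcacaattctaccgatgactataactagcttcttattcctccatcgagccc
HIST1H2AI and HIST1H2BL: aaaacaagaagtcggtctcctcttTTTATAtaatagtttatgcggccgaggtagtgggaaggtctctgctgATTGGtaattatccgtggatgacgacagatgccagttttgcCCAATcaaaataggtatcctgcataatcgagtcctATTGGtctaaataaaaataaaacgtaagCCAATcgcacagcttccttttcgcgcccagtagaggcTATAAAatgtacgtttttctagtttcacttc
The first pair held 1 octamer, 48 bases before the start of HIST1H2BG, and the second pair held no match to these letters. CCAAT boxes numbered 3 in the first stretch and 4 in the second.

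Over the classes, promoters were found in RefSeq for 65 of the 75 genes, and motifs were sought on both strands in the 250 bases before the start, with no rule against overlap. The H1 box occurred in 6 of 6 H1 promoters and in no promoter of another class, against 4.95% of 27305 RefSeq promoters. The octamer occurred in 11 of 16 H2A promoters and 14 of 18 H2B promoters, in 1 of 12 H3 promoters, and in no H1 or H4 promoter, against 1.66% of all. The H3 promoter was that of HIST1H3D, which shares its listed locus with HIST1H2AD. Its matches lay at the same distances as those of HIST1H2AD, so it cannot be counted as a separate H3 promoter. The CCAAT box occurred in every H1, H2A, H2B and H3 promoter examined but in 3 of 13 H4 promoters, against 33.0% of all. TATAAA was more evenly spread, with 3 of 6 H1, 12 of 16 H2A, 12 of 18 H2B, 9 of 12 H3 and 7 of 13 H4 promoters, against 11.1% of all. Such a match describes letters and does not show that a factor binds there.

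**Figure D1:**
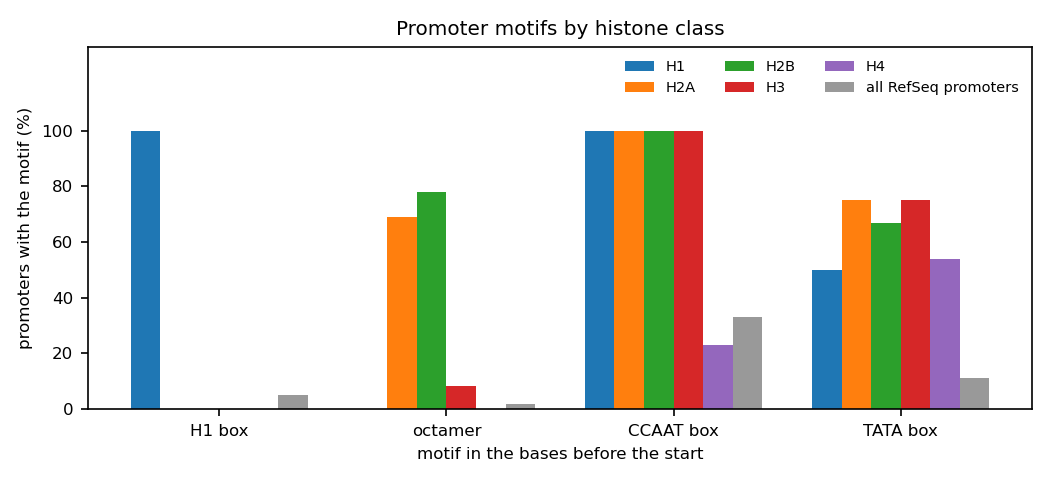
Share of promoters (percent, y axis) that hold each of 4 motifs (x axis) in the 250 bases before the start, by histone class (colours) and over all RefSeq promoters (grey). The H1 box is found in 100% of H1 promoters and in no promoter of the other classes, and the octamer in H2A and H2B promoters.

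The inputs held between 0.463% and 1.16% of their fragments on the 75 genes. Summed FPKM was 29109.9 in HCT116, 15813 in Hep3B, 11223 in DU145 and 10643 in SW1990. The HCT116 input thus carried the highest summed level, and the DU145 and SW1990 inputs were close to each other. With 1 input per line these levels have no replicate error, and levels of Hep3B and HCT116 were scaled apart from those of DU145 and SW1990, although counts per FPKM differed by a median factor of only 0.987 to 1.03 between the inputs. S-phase and proliferation genes differed among themselves in their order over the inputs. MCM5, a subunit of the replicative helicase, had the order of the histone sums, with 56.0, 57.7, 39.9 and 25.2 FPKM in the Hep3B, HCT116, DU145 and SW1990 inputs. PCNA, the replication clamp, lay at 219, 249, 101 and 332 FPKM, and MKI67 at 19.5, 41.2, 125 and 150.1 FPKM, both highest in SW1990.

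HIST1H2AM was the highest member in 3 of 4 inputs, with 1148 FPKM in Hep3B, 1897 in HCT116 and 1067 in SW1990, against 603 in DU145. In DU145 HIST2H2AC led with 752 FPKM. The class shares were similar between lines with 1 exception. H1 genes held 17.3% of the summed FPKM in SW1990, against 3.68% in Hep3B, 3.49% in HCT116 and 5.56% in DU145, so that the SW1990 input was richest in H1. The testis-type genes HIST1H2AA and HIST1H2BA, and also HIST1H4F and HIST1H4G, lay below 0.5 FPKM in all 8 libraries.

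A large part of the HIST1 genes was used in some lines and not in others. After the values had been seen, a member was called restricted to certain lines where it reached 10 FPKM in at least 1 input and stayed below 1 FPKM in at least 1 other. Of the 75 members 19 met this, all of them in HIST1, with 3 H1, 2 H2A, 5 H2B, 6 H3 and 3 H4 genes. Of the 68 members at 10 FPKM or more in at least 1 input these were 27.9%, beside 13.5% of the 10846 such genes in the whole table. Of the 19, 12 lay below 1 FPKM in HCT116, 9 in DU145, 5 in SW1990 and 3 in Hep3B. HIST1H2AD, HIST1H4I and HIST1H3J are among the 19 and share listed loci with the higher members HIST1H3D, HIST1H2BK and HIST1H2AM. How reads were divided between such genes was not tested, so their low values are uncertain. The same rule in the RIP libraries gave 16 members, of which 15 were the same. Of the 300 combinations of a member and a line, 51 lay below 1 FPKM in the input and 53 in the RIP, with 47 in both. The 2 libraries of a line come from 1 lysate and are not independent cultures. HIST1H2AD, whose reads are shared with HIST1H3D, was an exception in HCT116, with 14.1 FPKM in the input and 2.43e-05 FPKM in the RIP.

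**Figure D2:**
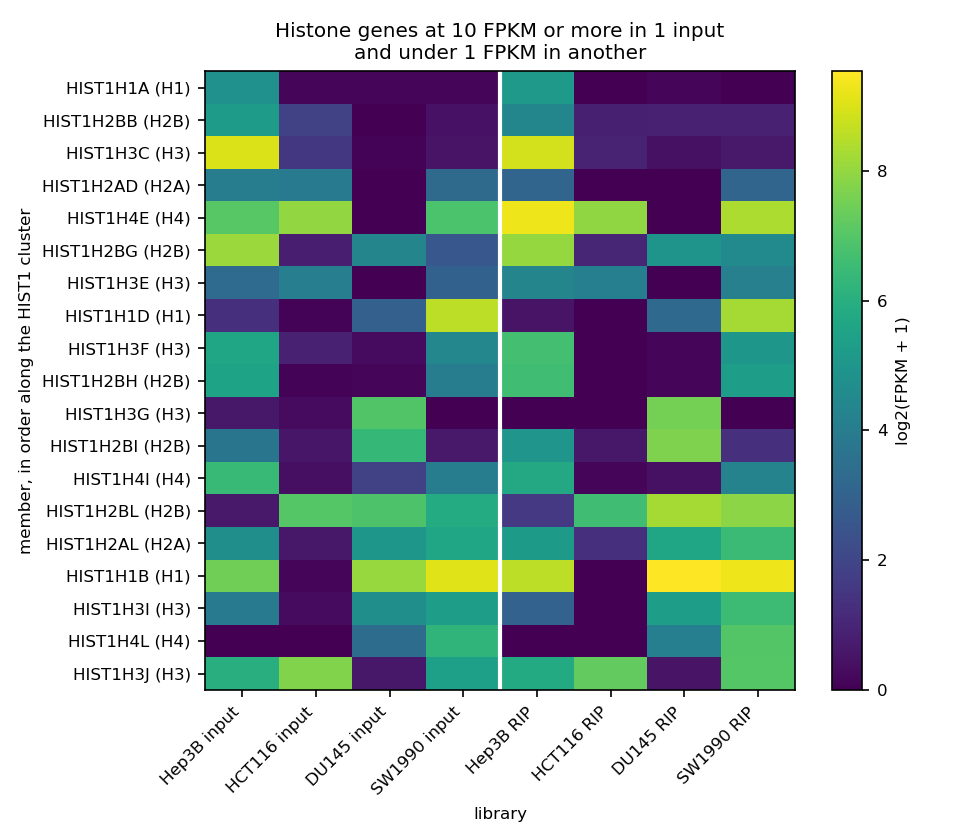
Level of the 19 line-restricted members, as log2(FPKM + 1) in colour, with members (y axis) in the order of the HIST1 cluster and the 4 inputs and 4 RIP libraries on the x axis. HIST1H2AL, HIST1H1B, HIST1H3I and HIST1H4L, which follow each other, are all dark in HCT116, and 14 of the 19 members have the same highest line in the input and the RIP columns.

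Some members that lie next to each other were missing from the same line, and others were not. Among the 50 HIST1 members at 10 FPKM or more in at least 1 input, 29 values lay below 1 FPKM, and in 17 of these (58.6%) an adjacent member was also below 1 FPKM in that line. For the 171 values of 1 FPKM or more an adjacent member was below 1 FPKM in 32 (18.7%). These counts were made after the pattern had been seen and have no test, and overlapping genes share reads. The neighbours HIST1H2AL, HIST1H1B, HIST1H3I and HIST1H4L lie in this order between chr6:27833033 and chr6:27841289 (hg19, the build of the files). In the HCT116 input they lay at 0.532, 0.125, 0.211 and 0 FPKM, and in the SW1990 input at 48.8, 544, 40.1 and 74.3 FPKM. Hep3B and DU145 expressed the first 3 of them, while HIST1H4L was listed at 0 in Hep3B and at 9.44 FPKM in DU145. The head-to-head neighbours HIST1H2BG (chr6:26216427-26216872) and HIST1H2AE (chr6:26217164-26217711) lay at 0.749 and 1.18 FPKM in the HCT116 input. Their Hep3B input levels were 273 and 341 FPKM. HIST1H2BL and HIST1H2AI showed the opposite choice of lines, with 0.559 and 4.78 FPKM in Hep3B and 128 and 420.2 FPKM in HCT116.

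HIST1H3F and HIST1H2BH, 1042 bases apart, were present at 47.8 and 44.8 FPKM in Hep3B and at 20.6 and 15.4 FPKM in SW1990. Both were below 1 FPKM in HCT116 and DU145. HIST1H3G and HIST1H2BI, 1530 bases apart, peaked in DU145 at 124 and 81.6 FPKM. HIST1H3G lay below 1 FPKM in the other inputs, whereas HIST1H2BI reached 12.1 FPKM in Hep3B. HIST1H3C, 1752 bases from HIST1H2BB, was listed at 530.1 FPKM in Hep3B and at no more than 1.95 FPKM elsewhere. HIST1H4E and HIST1H3E were listed at 0 in both DU145 libraries, which allows up to 3 of the 54209500 fragments of its input, and HIST1H4E lay at 133, 253 and 115 FPKM in the Hep3B, HCT116 and SW1990 inputs. In DU145 HIST1H2AE, not far from HIST1H3E, lay at 76.7 FPKM. These genes were singled out after their values were seen.

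RPS6 RIP was then compared with input, first by class within each line and then by gene over the 4 pairs. Summed FPKM of the H2A class was 4786 in the Hep3B input and 8710.2 in the Hep3B RIP, 3734 and 7877 in DU145, and 3144 and 7007 in SW1990. In HCT116 it was 9170.0 in the input and 6074 in the RIP. Hep3B, DU145 and SW1990 thus had more H2A mRNA in the RIP, and HCT116 had less. The log2 ratio of RIP to input, with 1 FPKM added to each sum, was 0.86, -0.59, 1.08 and 1.16 for H2A in Hep3B, HCT116, DU145 and SW1990. It was 0.50, -0.82, 1.10 and 1.21 for H2B. For H3 it was 0.49, -0.78, 1.01 and 1.46. H4 gave 0.13, -1.03, 1.36 and 1.39, the widest span of the classes, and its ratio in Hep3B was -0.016 without the duplicated copies. The median ratio over all 19921 genes tested lay between 0.00 and 0.08 in each line.

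H1 differed from the core classes in SW1990. Its log2 ratio there was -0.07, where each core class lay above 1, beside 0.89 in Hep3B, -0.12 in HCT116 and 1.35 in DU145. An alternative added after the data were seen took the share of all fragments in place of FPKM. The H1 ratio was then -0.93 in HCT116 and -0.65 in SW1990, and every class kept its sign in every line. By this measure the core classes in SW1990 lay at 0.82 (H2A), 0.79 (H2B), 0.91 (H3) and 1.07 (H4). Averaged over the 4 lines, the ratio was 0.51 ± 0.73 (SD, n = 4) for H1, 0.63 ± 0.82 for H2A, 0.50 ± 0.93 for H2B, 0.55 ± 0.97 for H3 and 0.46 ± 1.16 for H4. In each class the mean was smaller than the spread between lines. No difference of RIP from input common to the 4 lines was thus shown at the level of a class. The classes come from the same 4 pairs, so this spread does not measure differences between classes, which were not tested.

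**Figure D3:**
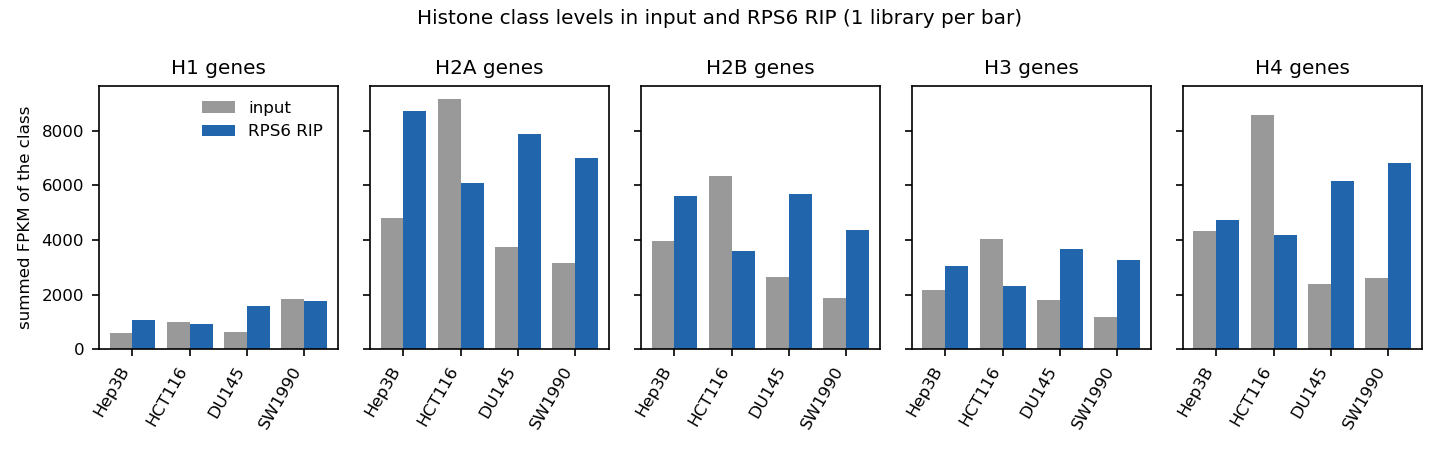
Summed FPKM of each histone class (y axis) in the input (grey) and RPS6 RIP (blue) library of each cell line (x axis), 1 library per bar and no error bars. The RIP bar of the core classes is above the input bar in Hep3B, DU145 and SW1990 and below it in HCT116, where H2A went from 9170.0 to 6074.

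Of the 75 members, 70 reached a mean of 10 estimated counts over the libraries and were tested with edgeR's quasi-likelihood test, with the line as a block and Benjamini-Hochberg adjustment over all genes. The filter used the mean of all 8 libraries, and the 5 members below it were HIST1H2AA, HIST1H2BA, HIST3H3, HIST1H4F and HIST1H4G. In RIP against input 20 of the 70 were higher (28.6%) beside 26.5% of all genes tested, and 1 was lower (1.43%) beside 24.9%. The share of members that were higher was therefore near that of all genes. At an unadjusted p under 0.05, 24 members were higher and 2 lower. The median fitted log2 change was 0.36 over the members and -0.05 over all genes. By cluster, 10 of 15 HIST2 members (66.7%) and 9 of 51 HIST1 members (17.6%) were higher, beside 26.5% of all genes. However, 6 of the 10 are near-identical copies whose reads could be split either way and 2 are pseudogenes in RefSeq.

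Without the HCT116 pair 32 of 70 members were higher (45.7%) beside 23.2% of all genes, and 0 were lower beside 21.5%. The 20 members called over 4 lines were all among these 32. The members higher numbered 5 without Hep3B (7.46%, beside 24.9% of all genes in that fit), 3 without DU145 (4.35%, beside 22.7%) and 4 without SW1990 (5.80%, beside 23.7%). The H2A calls were all lost without DU145 and also without SW1990, and the H3 calls were lost without any 1 of Hep3B, DU145 and SW1990. Within single lines, with no test, 18 members were at least 2-fold higher in the Hep3B RIP (25.7%, beside 19.1% of all genes tested), 27 in DU145 (38.6%, beside 18.2%) and 32 in SW1990 (45.7%, beside 19.8%). None was in HCT116, beside 18.7%. At least 2-fold lower were 20 members in HCT116 (28.6%, beside 13.4%), 1 in Hep3B (beside 10.6%), 1 in DU145 (beside 13.6%) and 0 in SW1990 (beside 16.0%). A ratio above 0 in the other lines and below 0 in HCT116 was found for 32 of 70 members (45.7%) beside 3.09% of all genes tested, a pattern chosen after it had been seen. The difference between HCT116 and the other lines has no replicate within a line and was not tested.

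**Figure D4:**
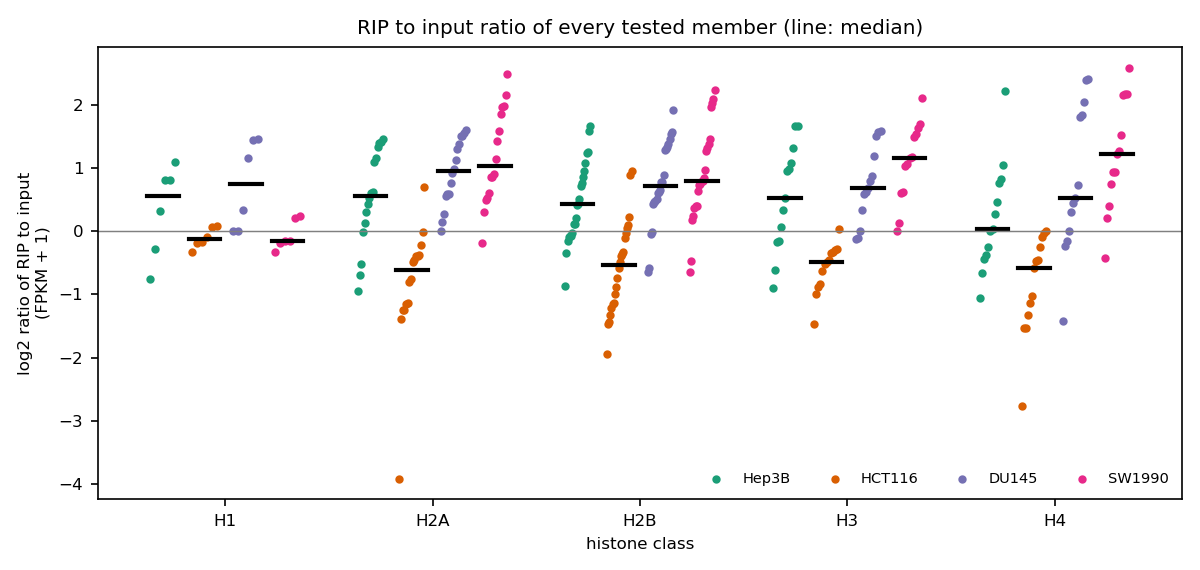
The log2 ratio of RIP to input FPKM (1 FPKM added to each, y axis) of each of the 70 tested members, by class (x axis) and cell line (colour), with the median as a black line. In each core class the HCT116 median lies below 0 and the medians of the other lines lie above it, the lowest being H4 in Hep3B at 0.03.

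None of the 6 H1 members passed the test in either direction, beside 26.5% of all genes tested higher and 24.9% lower. HIST1H1C lay at 172, 549, 233 and 464 FPKM in the Hep3B, HCT116, DU145 and SW1990 inputs and at 305, 438, 522 and 419.7 FPKM in the RIP. Its RIP level was higher in Hep3B and DU145 and lower in HCT116 and SW1990, with a fitted log2 change of 0.10 ± 0.29 (SE, adjusted p = 0.787). HIST1H1E behaved alike in Hep3B and DU145, with input levels of 204, 465, 117 and 445 FPKM and RIP levels of 359, 496, 323 and 399 FPKM, and a change of 0.35 ± 0.30 (adjusted p = 0.348). HIST1H1C and HIST1H1E were the only H1 genes above 100 FPKM in all 4 inputs. HIST1H1B was absent from HCT116, with inputs of 177, 0.125, 268 and 544 FPKM and RIP levels of 382, 0, 743 and 629 FPKM, and its change of 0.64 ± 0.34 did not pass the test (adjusted p = 0.137).

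HIST1H1D belonged to SW1990, with 382 FPKM in the input and 305 FPKM in the RIP against at most 8.67 FPKM in the libraries of the other lines. HIST1H1A belonged to Hep3B, with 27.3 FPKM in the input and 34.2 FPKM in the RIP against at most 0.134 FPKM elsewhere. Both genes thus had 1 line that expressed them well above the rest, and their fitted changes of -0.57 ± 0.35 and -0.65 ± 0.67 did not pass. Without the DU145 pair HIST1H1D passed at -1.08 (adjusted p = 0.0464). HIST1H1T, the testis-specific H1, stayed at or below 2.14 FPKM in all libraries.

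In the H2A class 7 of 16 tested members were higher in RIP (43.8%, beside 26.5% of all genes tested) and 0 lower (beside 24.9%). HIST2H2AC (chr1:149858524-149858961) lay at 643, 986, 752 and 339 FPKM in the inputs of Hep3B, HCT116, DU145 and SW1990 and at 1726, 978, 1487 and 754 FPKM in the RIP. The 2 groups overlapped, since the HCT116 libraries were nearly level while the RIP was above the input in the other lines, and the log2 change was 0.93 ± 0.28 (adjusted p = 0.0176). The copies HIST2H2AA4 and HIST2H2AA3 encode the same protein and gave changes of 1.13 ± 0.37 each (adjusted p = 0.0251 and 0.0255). HIST2H2AA4 was listed at 662, 1124, 732 and 267 FPKM in the inputs and 1669, 865, 1802 and 1058 FPKM in the RIP. Reads of the 2 copies could be assigned to either, so that they are uncertain as separate genes.

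HIST1H2AL (chr6:27833033-27833606) was higher in the RIP of all 4 lines, with inputs of 26.2, 0.532, 31.9 and 48.8 FPKM and RIP levels of 36.0, 1.50, 48.9 and 89.7 FPKM. Its log2 change was 0.84 ± 0.24 (adjusted p = 0.0147), and its ratio in HCT116 rests on levels near 1 FPKM. HIST1H2AM, the highest H2A member, went from 1148, 1897, 603 and 1067 FPKM to 1415, 1125, 914 and 1535 FPKM. Its locus is listed together with that of HIST1H3J, and it did not pass the test (0.23 ± 0.27, adjusted p = 0.507). The remaining H2A members called were HIST1H2AB, HIST1H2AC and HIST1H2AE, with log2 changes of 1.14, 1.07 and 1.05. Of the 7 calls, HIST1H2AL had a positive ratio in HCT116 and the others had a negative one.

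In the H2B class 6 of 22 tested members were higher (27.3%, beside 26.5% of all genes tested) and 0 lower (beside 24.9%). HIST2H2BF (chr1:149754226-149783928) lay at 435, 777, 523 and 359.9 FPKM in the inputs and at 1032, 837, 1556 and 897 FPKM in the RIP. Each RIP library was above its own input and also above every input, and the log2 change was 1.19 ± 0.28 (adjusted p = 0.00481). HIST2H2BA, a pseudogene in RefSeq, had the largest change of any member, 1.60 ± 0.31 (adjusted p = 0.00143), from inputs of 7.88, 16.0, 24.0 and 19.7 FPKM and RIP levels of 27.1, 30.7, 93.2 and 55.9 FPKM. Its RIP levels were likewise all above its inputs. These 2 were the only members whose call was kept when each pair was left out in turn. Both are listed over long loci that they share with FCGR1 genes, and FCGR1A and FCGR1B lay at or below 0.207 FPKM in every library.

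HIST1H2BI, expressed mainly in DU145, had a higher FPKM in the RIP of each line, with inputs of 12.1, 0.477, 81.6 and 0.573 FPKM and RIP levels of 30.3, 0.529, 209 and 1.46 FPKM. Its HCT116 ratio rests on 8 input and 6 RIP fragments, and its SW1990 ratio on 8 and 16. The log2 change was 1.26 ± 0.28 (adjusted p = 0.00355, and 0.182 without the DU145 pair). HIST1H2BO and HIST1H2BC, the H2B members with the highest mean input, did not pass. HIST1H2BO went from 652, 1262, 603 and 448 FPKM to 1072, 565, 1033 and 883 FPKM, so that HCT116 alone was lower, with a change of 0.36 ± 0.35 (adjusted p = 0.414), and it passed without the HCT116 pair at 0.86 (adjusted p = 0.00954). HIST1H2BC changed by -0.10 ± 0.32 (adjusted p = 0.825), with a log2 ratio of -1.33 in HCT116 and 0.76 in SW1990. The other calls were HIST1H2BL, HIST1H2BN and HIST2H2BB, with log2 changes of 1.17, 1.16 and 1.40.

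In the H3 class 3 of 13 tested members were higher (23.1%, beside 26.5% of all genes tested) and 0 lower (beside 24.9%). HIST2H3A and HIST2H3C are copies that lie in loci listed together with HIST2H4B and HIST2H4A. HIST2H3C was listed at 70.9, 208, 169 and 58.6 FPKM in the inputs and 227, 166, 507 and 125 FPKM in the RIP, with a log2 change of 1.01 ± 0.34 (adjusted p = 0.0305), and HIST2H3A followed it with 0.999 ± 0.343 (adjusted p = 0.0322). The values of the 2 copies were nearly equal in every library and cannot be read as 2 results. HIST1H3A was the third call, at 1.13 ± 0.37 (adjusted p = 0.0276). HIST1H3B, the highest H3 member, lay at 651, 1138, 583 and 258 FPKM in the inputs and 685, 574, 944 and 729 FPKM in the RIP and did not pass (0.37 ± 0.35, adjusted p = 0.405). HIST1H3H (0.73 ± 0.36, adjusted p = 0.112) and HIST2H3D (0.18 ± 0.37, adjusted p = 0.701) did not pass either, and all 3 were lower in the HCT116 RIP. Without the HCT116 pair all 3 passed, HIST1H3B at 0.83 (adjusted p = 0.0268), HIST1H3H at 1.24 (adjusted p = 0.00146) and HIST2H3D at 0.71 (adjusted p = 0.0251), and HIST1H3H also passed with no minimum on counts (adjusted p = 0.0126).

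In the H4 class 4 of 13 tested members were higher (30.8%, beside 26.5% of all genes tested) and 1 lower (7.69%, beside 24.9%). The copies HIST2H4A and HIST2H4B were listed with changes of 1.24 ± 0.45 (adjusted p = 0.0392) and 1.25 ± 0.44 (adjusted p = 0.0344). HIST2H4A lay at 306, 713, 293 and 194 FPKM in the inputs and 521, 516, 1569.5 and 881 FPKM in the RIP. The RIP level was furthest above input in DU145, and HCT116 went the other way. HIST4H4, the lone gene of its cluster (chr12:14920932-14924065), changed by 1.22 ± 0.36 (adjusted p = 0.0166), with inputs of 79.6, 119, 114 and 56.8 FPKM and RIP levels of 166, 112, 475 and 261 FPKM. HIST1H4E, listed at 0 in DU145, was the other call (1.07 ± 0.38, adjusted p = 0.0415).

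HIST1H4C had the opposite tendency to most of the class. It lay at 946, 1590.3, 149 and 499.9 FPKM in the inputs and at 453, 233, 205 and 372 FPKM in the RIP, lower in every line but DU145. Its log2 change of -0.98 ± 0.43 did not pass over the 4 lines (adjusted p = 0.0819) and passed without the DU145 pair (adjusted p = 0.0111) and with no minimum on counts (adjusted p = 9.83e-05). HIST1H4I was the only member called lower, at -1.13 ± 0.43 (adjusted p = 0.0495), with inputs of 85.2, 0.319, 2.64 and 15.7 FPKM and RIP levels of 53.3, 0.108, 0.353 and 18.2 FPKM. It shares its listed locus with HIST1H2BK, which lay far above it in every library, and its call was lost without Hep3B, HCT116 or DU145. HIST1H4B (0.40 ± 0.42, adjusted p = 0.445) and HIST1H4J (-0.03 ± 0.30, adjusted p = 0.948) did not pass.

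**Figure D5:**
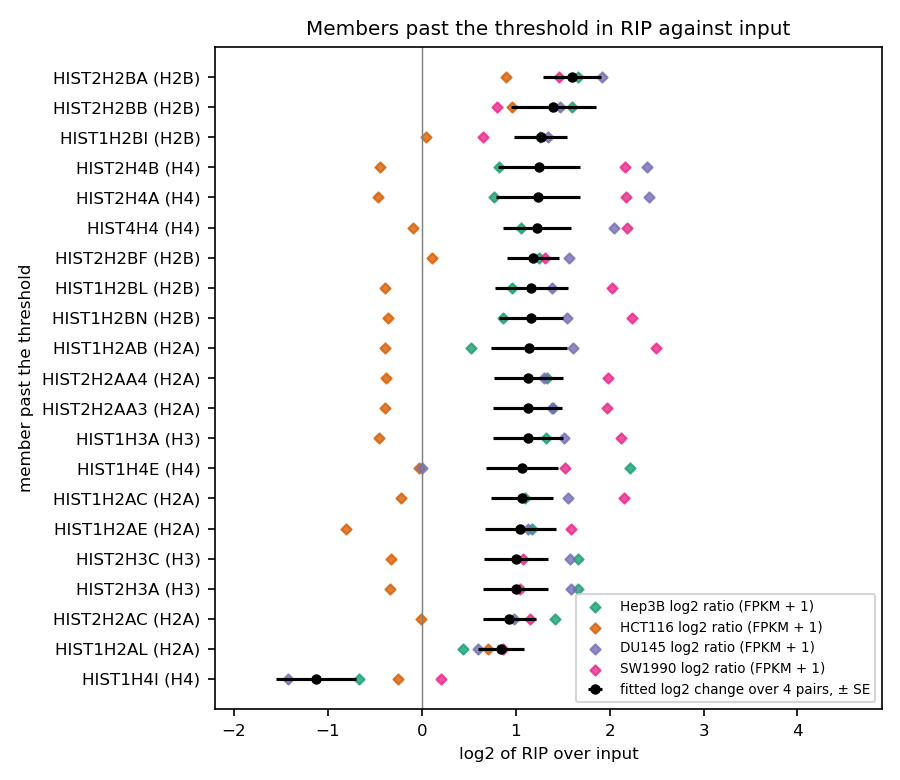
Fitted log2 change of RIP over input with its SE (black, edgeR over 4 pairs) of the 21 members past the threshold, and the log2 ratio of FPKM + 1 in each cell line (coloured diamonds). The HCT116 ratio is below 0 for 15 of the 20 members that were higher, and above 0 for HIST2H2BA, HIST2H2BB, HIST2H2BF, HIST1H2BI and HIST1H2AL. Levels of HIST1H2BI and HIST1H2AL in HCT116 were near or below 1 FPKM.

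The genes around the histone mRNAs gave mixed results. Most histone variants are made outside S phase as well and from polyadenylated mRNAs, while H2AFX also gives a stem-loop mRNA in S phase. Of 12 variant genes 2 were higher in RIP and 4 lower, beside 26.5% and 24.9% of all genes tested, with a median log2 change of -0.28. H2AFX, the variant phosphorylated at DNA breaks, was higher (1.17 ± 0.34, adjusted p = 0.0160), as was H1FX (0.62 ± 0.18, adjusted p = 0.0135). H2AFV (-2.07 ± 0.19, adjusted p = 1.88e-05), H3F3A, which encodes H3.3 (-1.41 ± 0.23), and CENPA, the centromeric H3 (-1.08 ± 0.20), were lower in all 4 lines. A ratio above 0 in the other lines and below 0 in HCT116 was found for 3 of the 12, namely H2AFX, H3F3B and H3F3C, beside 3.09% of all genes tested. For H2AFX the log2 ratios were 1.39, -0.24, 1.81 and 0.76 in Hep3B, HCT116, DU145 and SW1990.

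Of 15 factors for histone gene transcription and 3′ end processing 6 were higher and 6 lower, with a median of -0.37. Beside this and the lists that follow, 26.5% of all genes tested were higher and 24.9% lower. SYMPK, the scaffold of the cleavage complex (2.80 ± 0.26), UPF1, a helicase of histone mRNA decay (2.46 ± 0.24), and HINFP, an activator of H4 genes (1.06 ± 0.18), were higher. CASP8AP2 (-1.85 ± 0.19), the 3′ exonuclease ERI1 (-1.52 ± 0.22) and LSM11 of the U7 particle (-0.88 ± 0.28) were lower. SLBP itself lay at 60.8, 55.1, 53.2 and 75.8 FPKM in the inputs and 34.0, 50.9, 42.3 and 69.2 FPKM in the RIP and was lower (-0.65 ± 0.20, adjusted p = 0.0204). It is named after its values were seen. Of 15 histone chaperones 6 were higher, led by IPO4, HIRA and DAXX at 3.08, 2.34 and 1.45, and 5 were lower, led by ASF1A, NAP1L1 and NASP at -2.37, -2.05 and -1.86, with a median of 0.17. Among 9 S-phase and proliferation genes MCM2 and MCM5 were higher, at 2.47 and 2.09, and CCNE2 was lower, at -1.03, with a median of -0.22 over the 9 beside -0.05 over all genes tested.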

How the data were processed

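RPS6 RIP and input RNA of 4 cell lines was sequenced from total RNA libraries. The authors aligned the reads to hg19 with TopHat (TopHat2 2.0.9 and CASAVA 1.8 in the submitters' processing notes), and the counting tool and annotation release are not given in the sources used here. The authors deposited FPKM and estimated counts per gene for each library, in 2 tables of 2 lines each that were scaled separately. The estimated counts were scaled by 1 factor per library, and between 91.95% and 94.29% of values were whole fragments (within 0.05) after division by that step, which gave the depths. The test had been planned for whole read counts. The deposited comparisons of single libraries (fold change, p and q) were not used. No other column of values was left out.

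The members and gene lists were chosen with earlier results of these data known. Estimated counts were rounded and tested with edgeR 4.0.16 (R 4.3.3) with TMM scaling, the cell line as a block, a mean of at least 10 counts and an adjusted p threshold of 0.05. Libraries are paired by lysate. Deviations of a RIP library from its group mean correlated with those of its own input (r from 0.839 to 0.886 over 19921 genes) and not with those of another (highest r -0.0447). Each pair is a different line and group means were subtracted, so these values reflect the line and cannot show a shared lysate. The fit was tested on simulated data in which 200 of 19921 genes were changed. It called 40 of 108 genes given a log2 change of 1 in size (37%). It called 65 of 92 given a change of 2 (70.7%), and 7 of its 112 calls were false. Far more genes were called in the real data (10242 of 19921), which changes the p-value needed to pass. These shares therefore do not give the power of the real fit. A member that did not pass can still differ. Ratios within a line used log2(FPKM + 1) and have no test. Nothing states that the lines were cultured more than once, so p-values measure the spread between lines. Floors cover counting error only. Genes were named by a fixed rule: every H1 gene, the 3 members of each other class with the highest mean input, the highest and lowest called member with 1 sign in all lines, the duplicated copies and at most 3 genes per direction of each other list. Further members named were chosen after their values were seen. One of the tissue markers is not reported here. Promoters are RefSeq's. Alternatives were DESeq2 1.42.0, limma 3.58.1 on log2(FPKM + 1) and log2(FPKM + 0.1), no block, no or a higher minimum on counts, each line left out, medians of members and classes without copies. Added after the data were seen were recovered fragments, each table alone, members without pseudogenes or shared loci, shares of fragments and other limits and all genes for line restriction.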

Additional observations from a re-analysis of the deposited data

Results flagged for a closer look

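Among 40 groups of 4 cell lines examined for 1 value far from the rest, 2 were found, about as many as chance alone flags in 40 groups (about 1 in 20). The log2 ratio of the H2A class in HCT116 (-0.59) and that of HIST1H2BO in HCT116 (-1.16) lay far below the other lines. The log2 ratios of H2A (-0.59), H2B (-0.82), H3 (-0.78) and H4 (-1.03) in HCT116 were opposite in sign to those of each other line, except that H4 in Hep3B was -0.016 without the duplicated copies. The difference was not tested, since each line has 1 RIP and 1 input library.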

How the results depend on the processing

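Over the 4 pairs 20 of 70 members were higher in RIP and 1 lower. The higher count was 21 with DESeq2, 26 with no minimum on counts, 19 with a mean of at least 50 counts and 20 with recovered fragments. It fell to 0 without the replicate block (the cell line), 11 with limma on log2(FPKM + 1) and 13 with limma on log2(FPKM + 0.1). Without members whose locus is shared it was 13, but of 55 members in place of 70. Within the table of Hep3B and HCT116 it was 0, and within that of DU145 and SW1990 34. The lower count was 0 without the replicate block, in both limma fits, within the second table and without shared loci, 2 with no minimum on counts and 4 within the first table. Over all genes 10242 calls became 2771 without the replicate block and 6585 within the first table, where fewer samples were tested. Leaving out 1 pair gave 3 (without DU145) to 32 (without HCT116) members higher and 0 to 2 lower. Other causes of these shifts were not tested. By share of fragments the H1 ratio in HCT116 moved to -0.93, and the other class ratios stayed within 1 SD under each alternative, although H4 in Hep3B turned from 0.13 to -0.016 without duplicated copies.

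Among named members, the sign turned only for some that had not passed the test. Without the replicate block HIST1H1C gave -0.026 and HIST1H4B -0.0053. In the table of Hep3B and HCT116 the log2 change was -0.18 for HIST1H1C, -0.25 for HIST1H2AM, -0.31 for HIST1H2BO, -0.48 for HIST1H3B, -0.55 for HIST2H3D and -0.71 for HIST1H4B. In that of DU145 and SW1990 it was 0.0495 for HIST1H1T, 0.52 for HIST1H2BC and 0.28 for HIST1H4J. With limma on log2(FPKM + 1) HIST1H1T gave 0.0092. With 1 pair left out, HIST1H1C ranged from -0.21 to 0.39, HIST1H2BC from -0.36 to 0.34, HIST2H3D from -0.14 to 0.71, HIST1H4B from -0.085 to 0.91 and HIST1H4J from -0.30 to 0.37. Depth limits members under about 1 FPKM.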
